A study of Mus musculus with 12 samples.

Results

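Gene expression in mouse testis was compared between the groups labelled 5NC and 3NC, across every gene of the deposited table. The 6 libraries labelled 5NC and 3NC, 3 of each, were taken by their labels from the 12 libraries of the series. All 12 libraries came from F0 testes of a strain given as IRC mouse, and the testes of the series had received virus. The treatment labels are 5NC, 3NC, 8276OV for overexpression of the long noncoding RNA lncRNA8276, and 8276KD for its knockdown; the last 2 groups are called OV and KD here. What 5NC and 3NC stand for is nowhere written out, and reading them as control viruses is an inference. The labels name no vector, promoter, dose, age or time after virus, and whether the libraries of a group came from different animals is not stated. The p-values therefore rest on the spread among libraries, which may be technical.

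Many of the genes described below are immediate early genes, which cells transcribe within minutes to hours of a stimulus from factors already present, without making new protein first. Growth factors, cytokines, handling and injury all induce them, and their RNA is short-lived. Testis holds germ cells from spermatogonia to elongating spermatids, together with Sertoli, Leydig, peritubular, vascular and immune cells, and in bulk tissue fewer cells of a type and less RNA per cell cannot be told apart.

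Libraries held 15448442 to 16355720 estimated reads, and levels are given as CPM, counts scaled to a common library size by TMM. Replicate 2 of 3NC stood apart from the other 3NC libraries and lay nearer to replicate 3 of OV: the correlation of log2 CPM was 0.984 with that library and 0.981 with each of its own group. That 3NC library also had a summed level of interferon response genes of 529 CPM, against 223 and 247 CPM in the other 3NC libraries. The same sum was 324, 531 and 228 CPM in the 5NC libraries, so replicate 2 of 5NC was as high. In replicate 1 of 5NC the summed level of Sertoli cell markers was 2445 CPM, against 1745 and 1694 CPM in the other 5NC libraries. Markers of spermatids, Sertoli cells and Leydig cells were detected in all 6 libraries, as the tissue label states.

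A gene was called where edgeR's quasi-likelihood test gave a Benjamini-Hochberg adjusted p under 0.05. Of 16320 genes tested, 59 (0.362%) were called between 5NC and 3NC. Of these, 47 (0.288%) were higher in 3NC and 12 (0.0735%) were higher in 5NC. Every 3NC library lay above every 5NC library for all 47, as for 8.72% of all genes tested, and every 5NC library above every 3NC library for all 12, as for 8.13%; either direction together held for 16.9%. At an unadjusted p under 0.05 the split was nearly even, with 1003 genes higher in 3NC and 969 higher in 5NC. The 47 genes higher in 3NC were all protein-coding, with a median fold of 2.86; 14 differed by less than 2-fold and 14 by 4-fold or more. The common biological coefficient of variation was 0.13, and the median log2 fold change of all genes was 0.01. With 1 library left out, the count was 66 without 5NC replicate 1, 34 without 5NC replicate 2, 16 without 5NC replicate 3, 39 without 3NC replicate 1, and 32 without 3NC replicate 2 or 3. The genes called in all 6 of these fits were 16: Egr1, Medag, Errfi1, Trib1, Myc, Btg2, Ifrd1, Insig1, Egr2, Ier3, Nr4a3, Ccl7, Dusp1, Osr1, Zfp36 and Txnip. Each of the other 43 lost its call in at least 1 of them, and 7 lost it in all 6. Below, log2 fold changes are 5NC minus 3NC ± SE, so that a negative value is a higher level in 3NC.

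In a first set of genes KD libraries were also high and OV libraries low. Of the 47 genes higher in 3NC, 8 had every KD library above every 5NC and every OV library, a pattern seen in 1.80% of all genes tested; the 47 had been chosen for low 5NC libraries, which favours it, so nothing is read from that contrast. They were Egr1, Egr2, Btg2, Zfp36, Fosb, Junb, Dusp1 and Atf3; this arrangement was looked for after the values had been seen.

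The smallest p belonged to Egr1, a zinc finger transcription factor induced by serum and growth factors. Its level was 6.11, 3.29 and 4.10 CPM in the 5NC libraries and 54.1, 50.7 and 46.8 CPM in the 3NC libraries. In KD it was 53.4, 52.4 and 50.3 CPM, and in OV it was 5.38, 3.76 and 3.81 CPM. The 12 libraries thus fell into a low set of 5NC and OV and a high set of 3NC and KD with no library between. The log2 fold change of Egr1 was −3.48 ± 0.18 (adjusted p = 1.82e-07), an 11.2-fold difference of the means.

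Btg2, an antiproliferative cofactor of mRNA deadenylation, followed the same order. It stood at 5.50, 4.01 and 3.91 CPM in 5NC and at 23.97, 23.50 and 21.92 CPM in 3NC, with KD at 21.7, 31.5 and 15.9 CPM and OV at 6.22, 4.14 and 4.43 CPM. The log2 fold change was −2.37 ± 0.23 (adjusted p = 0.000265), and the KD libraries lay on both sides of the 3NC libraries.

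Zfp36 encodes tristetraprolin, which binds AU-rich elements and speeds the decay of cytokine mRNAs. It was measured at 5.62, 4.34 and 4.61 CPM in 5NC, 13.6, 14.4 and 12.1 CPM in 3NC, 12.3, 17.36 and 10.01 CPM in KD and 6.35, 4.76 and 4.68 CPM in OV. Again no 5NC or OV library reached the 3NC or KD libraries, and the log2 fold change was −1.46 ± 0.20 (adjusted p = 0.00397).

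**Figure D1:**
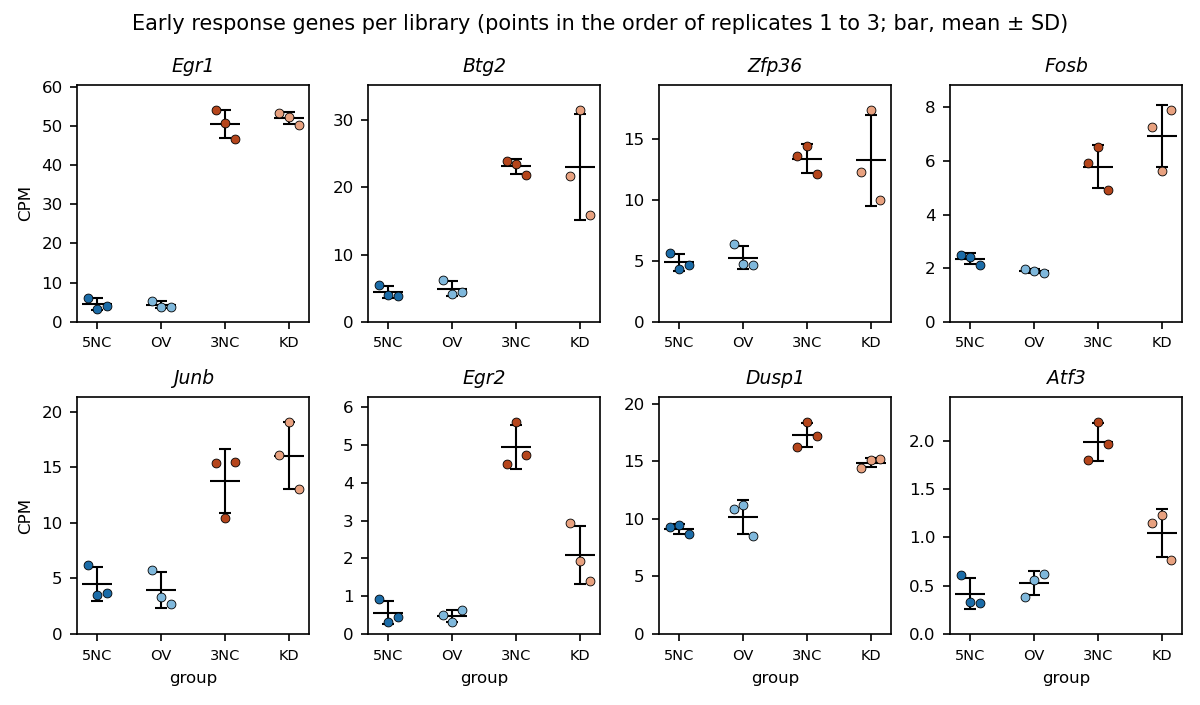
Level of early genes in CPM (vertical axis, linear) in each library of 5NC, OV, 3NC and KD (horizontal axis); points are replicates 1 to 3 and bars the mean ± SD. Egr1 lies between 3.29 and 6.11 CPM in every 5NC and OV library and between 46.8 and 54.1 CPM in every 3NC and KD library.

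AP-1 is the family of leucine zipper dimers formed by FOS, JUN, ATF and MAF proteins. Of its 12 tested subunits, 5 were called higher in 3NC and 0 higher in 5NC, with a median log2 fold change of −1.12. Over all genes tested, 0.288% were called higher in 3NC and 0.0735% higher in 5NC. This list and those below were chosen with earlier results of these data known, so their counts only describe and were not tested. Fosb was at 2.50, 2.43 and 2.11 CPM in 5NC and at 5.91, 6.51 and 4.92 CPM in 3NC (log2 −1.30 ± 0.18, adjusted p = 0.00506). Junb was at 6.23, 3.55 and 3.65 CPM in 5NC and at 15.4, 10.5 and 15.5 CPM in 3NC (log2 −1.61 ± 0.28, adjusted p = 0.0248). Both were also high in KD, with 7.26, 5.64 and 7.91 CPM for Fosb and 16.1, 19.0 and 13.0 CPM for Junb. The adjusted p of Junb ran from 0.0163 to 0.123 with 1 library left out and that of Fosb from 0.00995 to 0.0571, missing the threshold without 5NC replicate 3 for both and also without 5NC replicate 2, 3NC replicate 1 or 3NC replicate 3 for Junb.

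The other called subunits were Atf3, Maff and Fosl2, and they did not share that order in full. Atf3, a stress-induced repressor, was at 0.611, 0.329 and 0.320 CPM in 5NC and 1.80, 2.19 and 1.97 CPM in 3NC, with KD between at 1.15, 1.23 and 0.765 CPM. Maff, a small MAF protein without a transactivation domain, was at 4.88, 5.24 and 4.59 CPM in 3NC and at 1.28 to 1.58 CPM in 5NC. Its KD libraries, at 1.66, 1.88 and 1.98 CPM, lay close to 5NC. Fosl2 was at 10.9, 18.6 and 12.5 CPM in 3NC and at 5.92, 4.60 and 3.84 CPM in 5NC, with KD at 7.90, 5.51 and 5.61 CPM. With 1 library left out the adjusted p reached 0.0907 for Atf3, 0.0916 for Maff and 0.143 for Fosl2, and all 3 missed the threshold without 5NC replicate 3, Atf3 also without 5NC replicate 2, and Fosl2 also without 5NC replicate 2, 3NC replicate 2 or 3NC replicate 3.

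Fos itself did not pass the test between 5NC and 3NC. Its libraries did not overlap, with 1.28, 0.920 and 0.769 CPM in 5NC and 3.73, 4.81 and 2.89 CPM in 3NC, but the adjusted p was 0.0587 (log2 −1.93 ± 0.39). The highest levels of Fos were in KD, at 8.73, 18.3 and 10.5 CPM. Ier2, another early gene, was at 4.03, 2.89 and 2.63 CPM in 5NC and 6.68, 4.38 and 6.10 CPM in 3NC, and was not called (adjusted p = 0.175).

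Among the 6 EGR factors and their NAB corepressors, Egr1 and Egr2 were called and the list median was −0.13. Egr2 was at 0.916, 0.329 and 0.448 CPM in 5NC and at 4.498, 5.6003 and 4.726 CPM in 3NC (log2 −3.10 ± 0.36, adjusted p = 0.000842). KD libraries stood at 2.93, 1.94 and 1.40 CPM, above 5NC and below 3NC. Of the 3 NR4A orphan nuclear receptors only Nr4a3 was called, at 3.18, 2.56 and 3.07 CPM in 5NC and 9.57, 14.5 and 11.5 CPM in 3NC (adjusted p = 0.00229), and its KD libraries, at 2.85 to 3.70 CPM, were close to 5NC. Of 33 other immediate early genes, 7 were called higher in 3NC, against 0.288% of all genes tested, and 0 higher in 5NC (median −0.16). The 7 were Btg2, Ier3, Plk3, Trib1, Zfp36, Bhlhe40 and Rhob. Plk3 passed in 0 of 6 fits with 1 library left out (adjusted p from 0.0978 to 0.129), and Bhlhe40 and Rhob in 2 of 6 each (up to 0.0974 and 0.230).

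Promoters of these genes are shown because many of them moved together. RefSeq promoter windows, from 250 bases before to 50 after each start on GRCm38.p6, were held for 38 of the 47 genes higher in 3NC. Motifs were searched on both strands of the 250 bases before each start, and not in the 50 after it. The serum response element (CArG box) occurred in windows of 2 of those 38 genes (5.26%), Egr2 and Zfp36, against 1.42% of all tested genes with a window. The cAMP response element TGACGTCA occurred in 4 of them (10.5%), Btg2, Dusp1, Errfi1 and Maff, against 2.69%. The sequences run 5′ to 3′ on the gene's strand with the match in capitals, from chr10:67537689-67537868 (plus strand) for Egr2, chr7:28379267-28379296 (minus) for Zfp36, chr1:134079156-134079335 (minus) for Btg2, chr17:26508520-26508652 (minus) for Dusp1, chr4:150854950-150855069 (plus) for Errfi1 and chr15:79347340-79347519 (plus) for Maff. They are upstream of 1 annotated start each; that of Zfp36 overlaps an annotated exon and is kept to 30 bases.
Egr2: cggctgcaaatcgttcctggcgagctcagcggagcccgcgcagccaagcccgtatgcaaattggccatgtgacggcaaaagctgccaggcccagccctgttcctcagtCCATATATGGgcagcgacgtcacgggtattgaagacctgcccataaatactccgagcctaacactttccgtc
Zfp36: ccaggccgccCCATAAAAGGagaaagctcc
Btg2: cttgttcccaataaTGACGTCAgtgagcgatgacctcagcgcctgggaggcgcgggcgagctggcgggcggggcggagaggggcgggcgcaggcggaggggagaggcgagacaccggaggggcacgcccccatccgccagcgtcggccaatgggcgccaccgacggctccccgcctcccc
Dusp1: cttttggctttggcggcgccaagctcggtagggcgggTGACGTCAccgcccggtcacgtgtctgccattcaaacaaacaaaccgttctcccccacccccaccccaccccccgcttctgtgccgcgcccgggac
Errfi1: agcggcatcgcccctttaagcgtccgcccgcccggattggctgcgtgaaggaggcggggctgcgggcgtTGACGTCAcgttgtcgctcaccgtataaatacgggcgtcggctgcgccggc
Maff: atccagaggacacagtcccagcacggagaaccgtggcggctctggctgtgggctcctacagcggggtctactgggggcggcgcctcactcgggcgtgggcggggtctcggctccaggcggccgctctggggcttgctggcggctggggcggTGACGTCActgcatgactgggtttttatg
The match in Egr2 lay 72 to 63 bases before the start and that in Errfi1 51 to 44 bases before it. No CRE match overlapped a CArG match in the searched 250 bases of any window. Other motifs were found in the windows of the 38 genes as follows: NF-kB (by name) in 23.7% against 10.2% of all tested genes, E-box CACGTG in 21.1% against 9.10%, TATA box TATAAA in 15.8% against 8.76%, AP-1 TGANTCA in 10.5% against 5.92%, EGR GCGGGGGCG in 10.5% against 5.01%, and STAT TTCNNNGAA in 10.5% against 7.36%. The interferon motif ISRE was found in 1 of the 38 genes (2.63%), Fosl2, close to the 3.18% of all tested genes. All these motif matches describe letters in the windows and were not tested as sites.

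In a larger set, which overlaps the first, 3NC was the highest of the 4 groups. Of the 47 genes, 39, among them Egr2, Dusp1 and Atf3 of the first set, had every 3NC library above every library of the other groups, as did 0.888% of all genes tested; the 5NC and 3NC libraries had chosen the 47, so only the place of KD and OV adds to that count. The mean of KD lay nearer to 5NC than to 3NC for 35 of the 47 genes, and the mean of OV did so for 44.

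Medag, a gene linked to the differentiation of fat cells (chr5:149367641-149431723), was the second by p. It was at 1.47, 0.920 and 1.79 CPM in 5NC and at 12.1, 14.2 and 9.71 CPM in 3NC, while KD stood at 1.34, 1.62 and 1.66 CPM and OV at 2.18, 2.01 and 1.31 CPM. The 9 libraries outside 3NC thus stayed within 0.920 to 2.18 CPM. The log2 fold change was −3.10 ± 0.25 (adjusted p = 2.96e-05), and Medag was called in every alternative tried.

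Errfi1 encodes MIG6, an inhibitor of the EGF receptor that the receptor's own signalling induces. It was at 25.0, 26.1 and 21.5 CPM in 5NC and at 83.5, 87.9 and 75.4 CPM in 3NC, with a log2 fold change of −1.76 ± 0.14 (adjusted p = 2.96e-05). KD libraries, at 39.95, 32.39 and 30.7 CPM, lay above 5NC and far below 3NC. Of 15 feedback inhibitors of MAP kinase signalling, Errfi1 and Dusp1 were called higher in 3NC and 0 were called higher in 5NC (median −0.25). Over all genes tested, 0.288% were called higher in 3NC. Dusp1, a phosphatase that switches off MAP kinases, was at 9.28, 9.46 and 8.65 CPM in 5NC, 16.3, 18.4 and 17.2 CPM in 3NC and 14.4, 15.1 and 15.2 CPM in KD (adjusted p = 0.00298).

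Myc, a transcription factor of cell growth (chr15:61985341-61990361), was at 0.366, 0.329 and 0.641 CPM in 5NC and at 4.88, 4.93 and 4.20 CPM in 3NC. These levels came from 21 and 221 reads, a ratio of 10.5 with a 95% counting interval from 6.71 to 17.3. KD and OV libraries were between 0.319 and 1.09 CPM, so that the 3NC libraries stood alone (log2 −3.37 ± 0.34, adjusted p = 0.000265). It was the 1 member called higher in 3NC among 11 genes of MYC and its dimerization partners, against 0.288% of all genes tested. The list median was 0.07.

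Trib1, a pseudokinase adaptor for protein degradation, was at 4.40, 4.67 and 3.84 CPM in 5NC and 13.7, 14.9 and 12.4 CPM in 3NC (log2 −1.67 ± 0.16, adjusted p = 0.000222). Ifrd1, a transcriptional coregulator, was at 18.5, 21.0 and 20.6 CPM in 5NC and 37.8, 47.0 and 40.4 CPM in 3NC (log2 −1.06 ± 0.11, adjusted p = 0.000446). Ier3, a gene of survival under stress, was at 2.08, 1.25 and 1.35 CPM in 5NC and 6.36, 8.77 and 8.20 CPM in 3NC (log2 −2.31 ± 0.27, adjusted p = 0.00104). In all 3 of these genes the KD libraries were below every 3NC library.

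**Figure D2:**
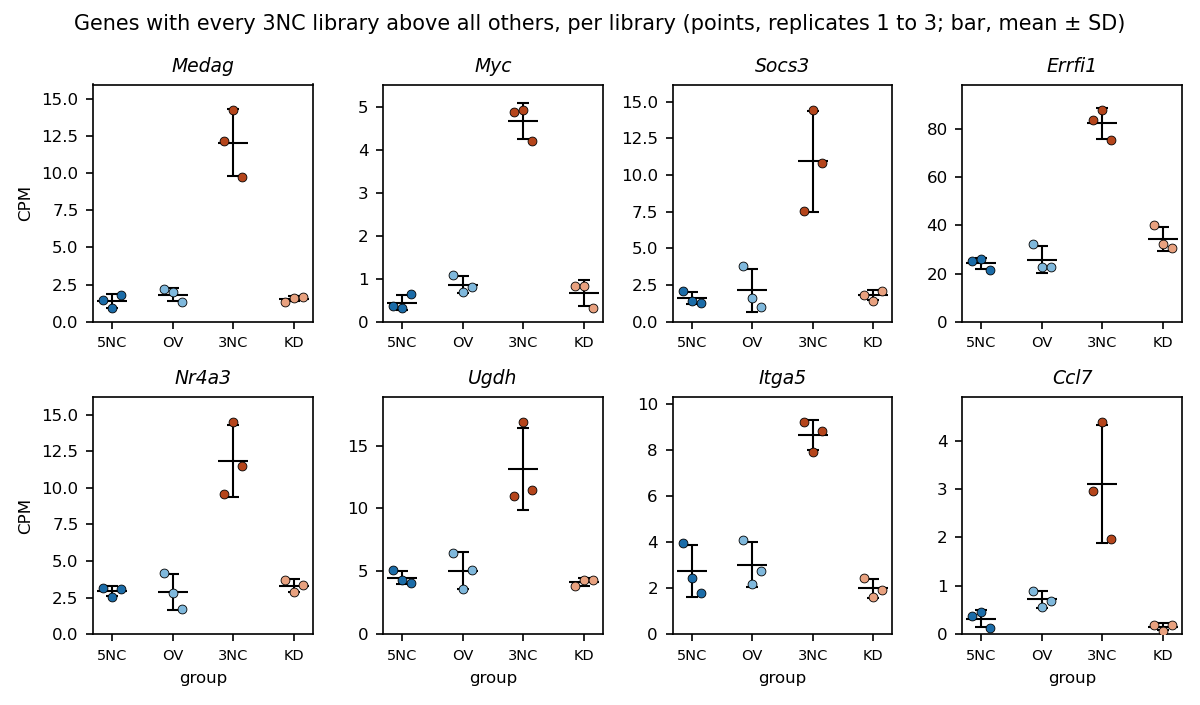
Level in CPM (vertical axis, linear) of 8 genes with every 3NC library above all other libraries, in each library of 5NC, OV, 3NC and KD (horizontal axis); points are replicates 1 to 3 and bars the mean ± SD. The 3NC libraries of Medag, at 9.71 to 14.2 CPM, lie above all 9 other libraries, which reach 2.18 CPM at most.

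Cytokine signalling genes were among those high in 3NC. Socs3, the feedback inhibitor of IL-6 type receptors, was at 2.08, 1.45 and 1.28 CPM in 5NC and at 7.52, 14.4 and 10.8 CPM in 3NC (log2 −2.76 ± 0.39, adjusted p = 0.00585). It was 1 of 17 tested members of its pathway list to be called, with a list median of −0.01. A stretch of its promoter at chr11:117969452-117969546 (minus strand, GRCm38.p6) holds the STAT letters in capitals, 154 to 146 bases before an annotated start.
Socs3: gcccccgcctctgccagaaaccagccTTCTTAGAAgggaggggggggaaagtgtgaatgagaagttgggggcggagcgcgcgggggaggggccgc
Of 22 chemokine genes tested, 3 were called higher in 3NC, against 0.288% of all genes tested, and 0 higher in 5NC (median −0.17). Ccl2, which attracts monocytes, was at 0.244, 0.131 and 0 CPM in 5NC and at 3.47, 3.53 and 2.49 CPM in 3NC. The reads behind these levels were 6 and 150, a ratio of 25.0 with a 95% counting interval from 11.2 to 69.2 (adjusted p = 0.0256). Ccl7, its neighbour on chromosome 11 and also a monocyte attractant, was at 0.366, 0.460 and 0.128 CPM in 5NC and at 2.96, 4.38 and 1.97 CPM in 3NC (adjusted p = 0.00298). Cx3cl1, the membrane-bound chemokine fractalkine, was at 3.11, 2.50 and 2.82 CPM in 5NC and 7.58, 10.2 and 6.56 CPM in 3NC (adjusted p = 0.0369). With 1 library left out the adjusted p ran from 0.0590 to 0.123 for Ccl2 and from 0.0633 to 0.174 for Cx3cl1, so that both missed the threshold in all 6 of those fits, and Socs3 missed it without 5NC replicate 3 (0.0739). Of 24 macrophage markers 0 were called, and their summed level was 498 to 512 CPM in 5NC and 467 to 539 CPM in 3NC. Of 38 interferon response genes and 19 NF-kB pathway genes 0 were called either.

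Matrix and adhesion genes gave fewer calls. Ugdh makes the UDP-glucuronate from which hyaluronan is built, and it was at 5.07, 4.34 and 4.10 CPM in 5NC and 10.99, 16.86 and 11.49 CPM in 3NC (log2 −1.54 ± 0.21, adjusted p = 0.00434). It was the 1 of 19 hyaluronan and early matrix genes called higher in 3NC, against 0.288% of all genes tested. By sign 13 of the 19 were higher in 3NC (list median −0.43), against 7852 of 16320 genes tested. That median was −0.10 without 3NC replicate 2. Itga5, the fibronectin receptor subunit, was at 3.97, 2.43 and 1.79 CPM in 5NC and 9.19, 7.91 and 8.80 CPM in 3NC (adjusted p = 0.0154). It was the 1 called of 22 integrin genes, against the same 0.288%. Ugdh missed the threshold without 5NC replicate 3 (0.0543), and Itga5 missed it in 4 of the 6 fits with 1 library left out (adjusted p up to 0.0974). F3 and Thbd, the coagulation starter tissue factor and its counterpart thrombomodulin, were both called, at 2.43 to 4.03 and 2.69 to 3.97 CPM in 5NC and 6.43 to 9.92 and 6.68 to 9.86 CPM in 3NC; each missed the threshold in 4 of those 6 fits.

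Several genes of sterol synthesis were called. The enzymes of this pathway build cholesterol from acetyl-CoA and are driven by SREBP2, while INSIG1 holds SREBP in the endoplasmic reticulum and is itself an SREBP target. Of 21 genes of the list tested, 4 were called higher in 3NC, against 0.288% of all genes tested, and 0 higher in 5NC. By sign, 18 of the 21 were higher in 3NC (median −0.21), against 7852 of 16320 genes tested. Insig1 was at 27.3, 22.1 and 21.9 CPM in 5NC and at 51.5, 63.6 and 47.3 CPM in 3NC (log2 −1.19 ± 0.13, adjusted p = 0.000446).

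Hmgcs1, an early synthase of the pathway, was at 115, 108 and 124 CPM in 5NC and 198, 228 and 162 CPM in 3NC (log2 −0.77 ± 0.14, adjusted p = 0.0352). Lss, which closes the sterol rings, was at 27.2, 25.0 and 26.8 CPM in 5NC and 36.2, 48.1 and 43.5 CPM in 3NC (adjusted p = 0.0290). Both enzymes differed by less than 2-fold. No library of one group reached the other, as for all 47 genes called higher in 3NC and 8.72% of all genes tested. Cyp51, the lanosterol demethylase held in the list of Leydig cell and steroidogenesis genes, was also called, at 117, 115 and 112 CPM in 5NC and 150, 182 and 159 CPM in 3NC (adjusted p = 0.0200). Srebf1 pointed the other way at 18.7, 14.9 and 17.2 CPM in 5NC and 11.8, 9.92 and 12.3 CPM in 3NC, without passing the test (adjusted p = 0.146). KD and OV means for Insig1, Hmgcs1, Lss and Cyp51 were nearer to 5NC. With 1 library left out Insig1 passed in all 6 fits, Cyp51 in 2, and Hmgcs1 and Lss in 1 each; without 3NC replicate 2 the adjusted p was 0.212 for Hmgcs1.

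The sterol regulatory letters TCACNCCAC, searched for after the values had been seen, occurred in the windows of 1 of the 38 genes (2.63%) against 1.22% of all tested genes. That gene was Hmgcs1, with the match 137 to 129 bases before an annotated start in chr13:119690171-119690350 (plus strand, GRCm38.p6), in capitals here.
Hmgcs1: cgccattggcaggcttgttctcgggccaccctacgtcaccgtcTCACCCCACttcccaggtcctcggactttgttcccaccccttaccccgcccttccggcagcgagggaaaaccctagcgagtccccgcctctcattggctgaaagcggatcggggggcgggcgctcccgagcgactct

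**Figure D3:**
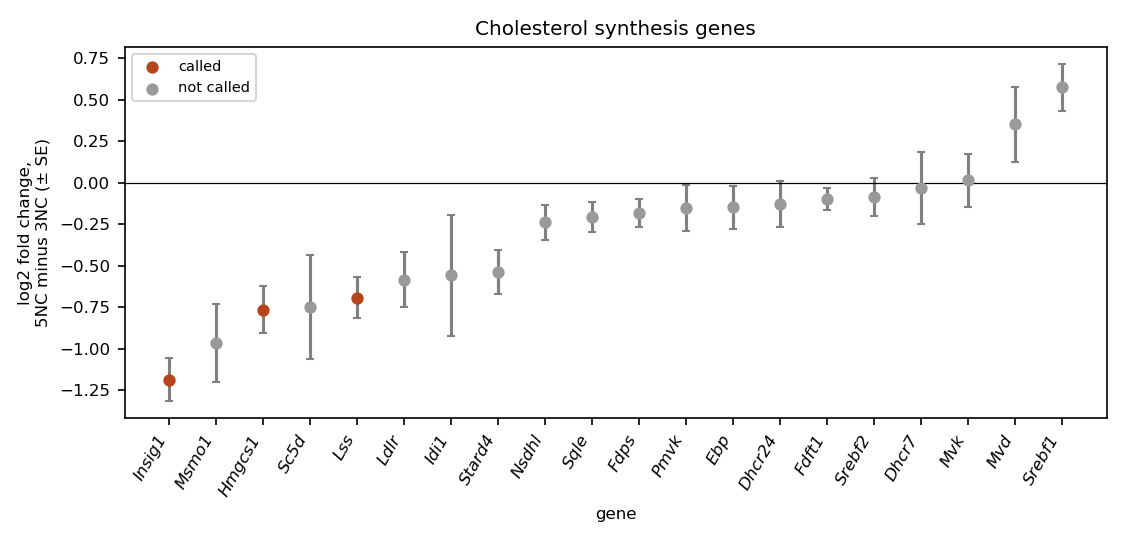
Log2 fold change of 5NC minus 3NC ± SE (vertical axis) for 20 of the 21 tested sterol genes (horizontal axis, sorted), with called genes in colour. Values below 0 are higher in 3NC; Insig1 is lowest at −1.19 and Srebf1 highest at 0.57.

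Among the remaining called genes higher in 3NC, Nr1h4, the bile acid receptor FXR, was at 0.122, 0.197 and 0.128 CPM in 5NC and at 1.67, 1.03 and 1.05 CPM in 3NC. Its 7 and 59 reads gave a ratio of 8.43 with a 95% counting interval from 3.84 to 21.9. Mrap, an accessory protein of the ACTH receptor, was at 6.66, 5.72 and 4.55 CPM in 5NC and at between 14.05 and 14.59 CPM in 3NC, and KD and OV libraries reached 7.06 CPM at most. Bach1, a repressor of antioxidant genes, was at 5.13, 3.75 and 4.48 CPM in 5NC and 8.55, 9.92 and 7.68 CPM in 3NC. Mat2a, which makes S-adenosylmethionine, and Gfpt2, which starts hexosamine synthesis, differed by 1.40-fold and 1.88-fold. Sema4b, Emp1, Wdr86, Frmd6, 9130204L05Rik, 1700011L22Rik and Lhfpl3 completed the 47. Lhfpl3 was unlike most of them, with OV libraries from 1.15 to 2.07 CPM beside a mean of 1.91 ± 0.198 CPM (SD, n = 3) in 3NC and 0.488, 0.263 and 0.320 CPM in 5NC. With 1 library left out, Nr1h4 and Bach1 passed in 3 of 6 fits, Lhfpl3 in 4, Mat2a in 1, and Mrap and Gfpt2 in 0.

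Of 20 targets of the glucocorticoid receptor and FOXO factors, 2 were called, both higher in 5NC, against 0.0735% of all genes tested. Txnip, which binds thioredoxin and restrains glucose uptake, was at 136, 85.6 and 98.3 CPM in 5NC and 44.9, 58.4 and 52.1 CPM in 3NC (log2 1.04 ± 0.15, adjusted p = 0.00585). Its KD libraries were at 89.3, 103 and 84.2 CPM and its OV libraries at 113, 109 and 105 CPM, both above 3NC. Fbxo32, a ubiquitin ligase subunit of muscle wasting, was at 4.34, 2.63 and 3.14 CPM in 5NC and 0.900, 1.58 and 0.656 CPM in 3NC (adjusted p = 0.0394). Fbxo32 missed the threshold with any 1 library left out except 3NC replicate 2 (adjusted p up to 0.176).

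Of 17 stromal fibroblast markers, 2 were called, again higher in 5NC (median 0.29), against 0.0735% of all genes tested. Osr1, a zinc finger factor of urogenital mesenchyme, was at 3.42, 1.84 and 2.50 CPM in 5NC and 0.578, 0.365 and 0.459 CPM in 3NC. Its 123 and 22 reads gave a ratio of 5.59, with a 95% counting interval from 3.53 to 9.25, and it was called in every alternative (log2 2.45 ± 0.33, adjusted p = 0.00353). Osr1 was at 1.21 to 2.27 CPM in the KD and OV libraries, so that 3NC was the low group.

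The other called genes higher in 5NC included markers of epididymis and fat. Of the 12, 5 had every 5NC library above every library of the other groups, as did 1.25% of all genes tested; 5NC above 3NC was largely fixed by the choice of the 12, so that only the place of KD and OV adds to the count. Spink8, a protease inhibitor made in the epididymis, was at 3.48, 16.6 and 12.9 CPM in 5NC and 0.450, 0.609 and 1.31 CPM in 3NC (adjusted p = 0.0333). Crisp1, another epididymal gene, was at 9.95, 93.3 and 90.0 CPM in 5NC and 0.321, 1.22 and 5.91 CPM in 3NC, and was not called (adjusted p = 0.351). Of the 7 epididymis markers tested 1 was called, against 0.0735% of all genes tested called higher in 5NC. By sign 5 of the markers were higher in 5NC and 2 in 3NC. Their summed level was 153, 338 and 331 CPM in 5NC and 158 to 207 CPM in 3NC. The part of these markers in the result was not tested. Plin1, a coat protein of fat droplets, was at 2.63, 1.97 and 2.31 CPM in 5NC and 1.03, 0.670 and 0.788 CPM in 3NC (adjusted p = 0.0333). It was the 1 called of 12 fat markers, against the same 0.0735% of all genes tested. The summed level of the fat markers was 554 to 703 CPM in 5NC and 512 to 664 CPM in 3NC. With 1 library left out the adjusted p ran from 0.00143 to 0.271 for Spink8, which passed only without 5NC replicate 1, and from 0.0561 to 0.180 for Plin1, which passed in none of the 6.

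A pair of called genes had no reads in 1 group. Cyp3a41a, of a cytochrome gene family whose near-identical copies make its count uncertain, had 0 reads in 3NC and 22 in 5NC. Its KD libraries held 30 reads and its OV libraries 69. The level in 5NC was 7.34-fold that of a floor of 3 reads over the 3NC group. Without that floor, the ratio of 5NC to 3NC had a 95% counting interval from 5.48 upward. LOC108168570, a gene model on chromosome Y that may share reads with copies, had 0 reads in 5NC and 37 in 3NC. Its KD libraries held 31 reads and its OV libraries 38. The level in 3NC was 12.3-fold that of the same floor over the 5NC group. Without the floor, the ratio of 3NC to 5NC had a 95% counting interval from 9.53 upward. Each passed in 1 of the 6 fits with 1 library left out. Ramp1, a partner of the CGRP receptor, was at 3.72, 2.30 and 2.56 CPM in 5NC and at 0.852 to 1.16 CPM in 3NC, and no KD or OV library passed 1.28 CPM. The others higher in 5NC included Dapp1, D430019H16Rik and 1 gene without a symbol.

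Small shifts of 1 direction ran through lists with few or no calls. All 28 Sertoli cell markers were higher in 5NC by sign (median 0.32), and 0 were called. Over all genes tested, 8467 of 16320 were higher in 5NC by sign and 0.362% were called. Amh, the hormone of immature Sertoli cells, stood at 2.32, 1.38 and 2.18 CPM in 5NC and 1.29, 0.548 and 0.656 CPM in 3NC (adjusted p = 0.234). Without 5NC replicate 1, the library with the high Sertoli sum, the list median was 0.13. Of 38 ribosomal protein genes, 37 were higher in 5NC by sign (median 0.16), 1 was called, and the median was 0.11 without 3NC replicate 2. Members of such lists move together in a library and are not independent.

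Germ cell genes, which make up most testis RNA, gave 0 calls in any of the lists from undifferentiated spermatogonia to elongating spermatids, with list medians from −0.09 to 0.05. Over all genes tested 0.362% were called, and 0 calls in such short lists is close to that share. Of 17 niche signals 1 was called higher in 3NC, against 0.288% of all genes tested. That gene was Kitl, the Sertoli cell ligand on which differentiating spermatogonia depend. It was at 18.7, 19.6 and 19.2 CPM in 5NC and 26.5, 43.8 and 29.7 CPM in 3NC, and the adjusted p of 0.0390 ran from 0.0202 to 0.181 with 1 library left out, passing only without 3NC replicate 1.

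**Figure D4:**
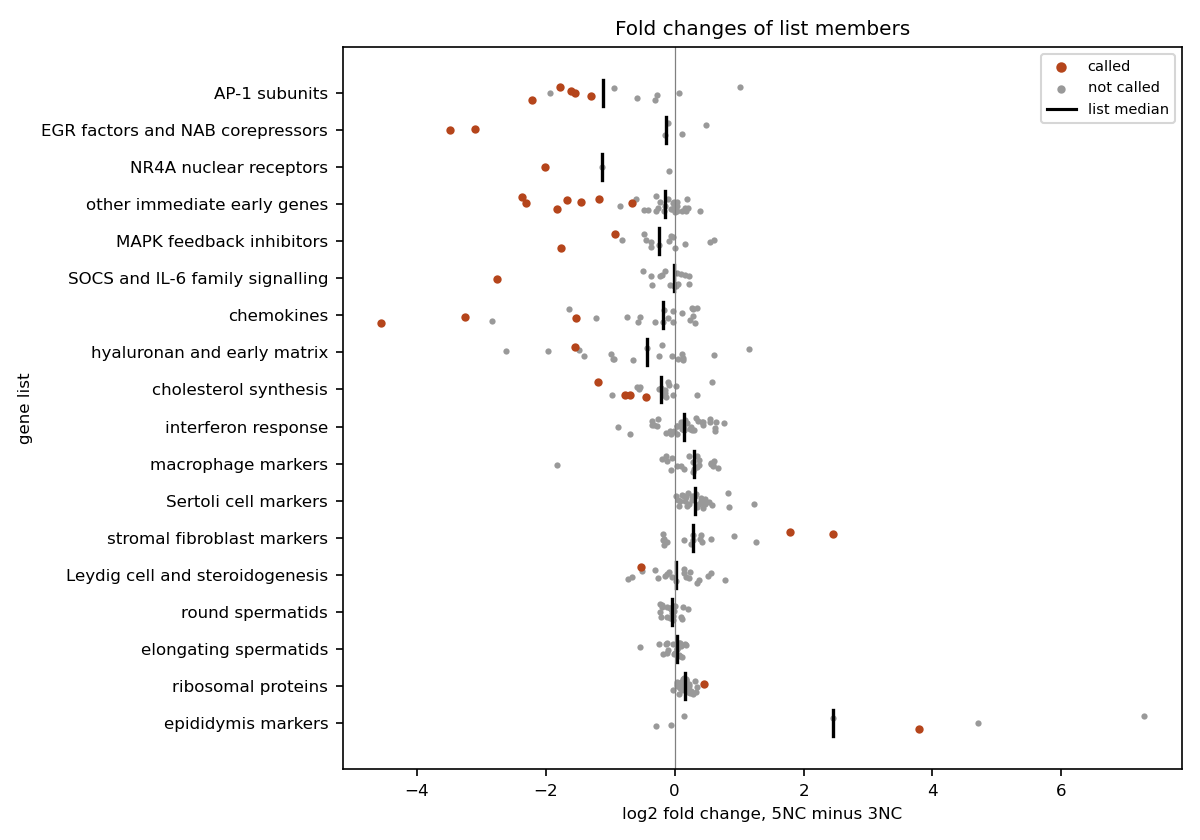
Log2 fold change of 5NC minus 3NC (horizontal axis) for the tested members of 18 gene lists (vertical axis), with called genes in colour and a bar at each list's median. AP-1 subunits have a median of −1.12, Sertoli cell markers of 0.32, and round and elongating spermatid genes lie close to 0.

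OV and KD share no library with 5NC and 3NC, so their own contrast could be set beside this one. OV against KD gave 9 called genes (0.0551% of genes tested), of which 7 (0.0429%) were higher in KD. Egr1, Btg2, Zfp36, Fosb and Junb were called in both comparisons with the same sign, which is 5 of the 59 and 5 of the 9. For Egr1 the log2 fold change of OV minus KD was −3.59 ± 0.18 (adjusted p = 1.29e-07), beside −3.48 in 5NC minus 3NC. Fos, which missed the threshold between 5NC and 3NC, had −4.39 ± 0.40 in OV minus KD (adjusted p = 0.000313). Ier2 had −1.81 ± 0.22 there (adjusted p = 0.00241).

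Of the 59 genes, 32 (54.2%) had the same sign in OV minus KD, against 37.0% of all genes tested. Of the others higher in 3NC, Ccl7 had 2.20 ± 0.56 there (adjusted p = 0.239), Egr2 −2.10 ± 0.38 (adjusted p = 0.0826), Medag 0.25 ± 0.27 (adjusted p = 0.775), Myc 0.38 ± 0.37 (adjusted p = 0.754) and Errfi1 −0.41 ± 0.14 (adjusted p = 0.494). A test of the difference between both comparisons, added after the data had been seen, called 10 genes (0.0613%), of which 8 were among the 59. They included Medag, Myc, Ccl7 and Errfi1, and none of the 5 genes called in both comparisons. The 5NC minus 3NC change that had chosen the 59 is part of that test. This favours calls among the 59, so nothing is read from their number. In contrasts that share libraries with this comparison, 25 of the 47 genes were called lower in KD than in 3NC and 36 lower in OV. Between KD and 5NC 5 were called, and between OV and 5NC 0. The 3NC and 5NC libraries that had chosen the 47 enter these contrasts, which favours such counts, so nothing is read from them.

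**Figure D5:**
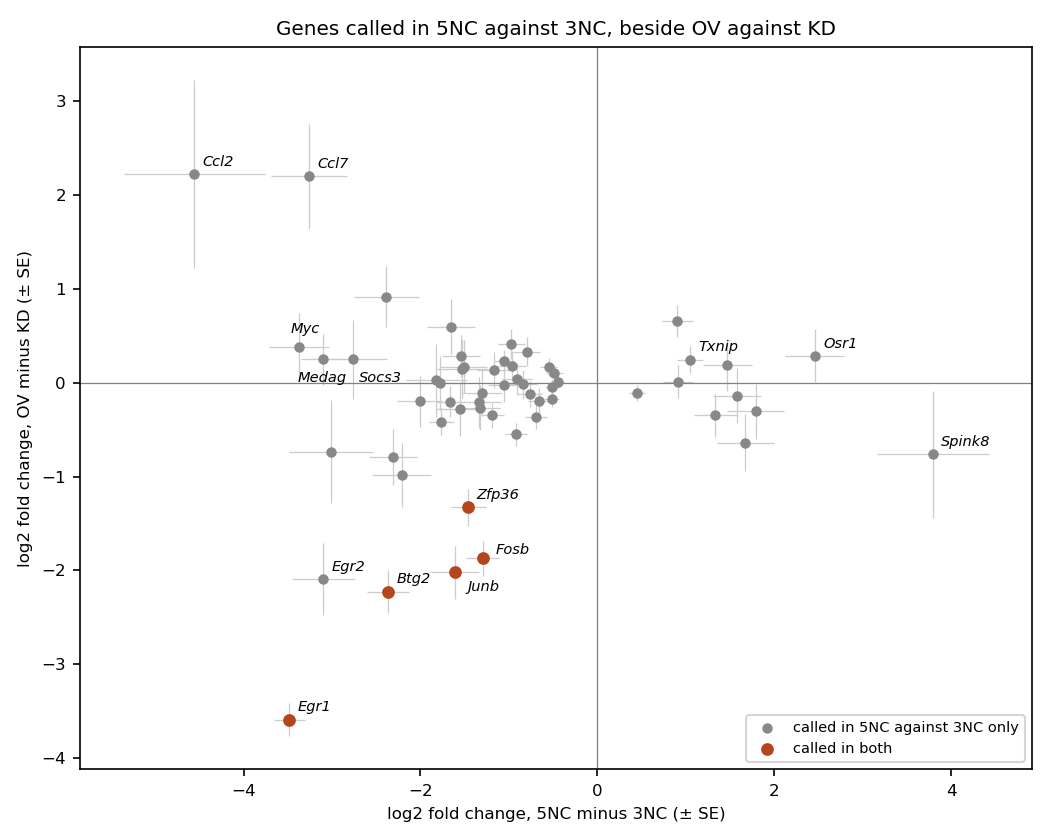
Log2 fold change ± SE of 5NC minus 3NC (horizontal axis) and of OV minus KD (vertical axis) for the called genes with reads in both groups; Cyp3a41a and LOC108168570 are left out because 1 group had 0 reads. Egr1, Btg2, Zfp36, Fosb and Junb, in colour, were called in both, while Medag and Myc lie near 0 on the vertical axis.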

How the data were processed

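Total RNA of 12 mouse testis libraries was sequenced, and 1 table of 20718 genes was analysed. Expected counts per gene, without normalisation, were deposited by the authors, per the file headers; 88.0% were whole within 1e-06, and all were rounded. The authors also deposited normalised values whose unit, FPKM, was inferred: over 5204 genes, value per read followed the library total to within 0.53%. The build was mm10, per the submitters' processing notes; aligner, counter, strandedness and annotation were not given in the sources used here. This table held 18 per-sample columns of no library of the series, not used here, and 20564 identifiers matched RefSeq (GRCm38.p6). No level of lncRNA8276 was analysed.

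Groups came from the treatment labels. The main test was edgeR 4.0.16 under R 4.3.3 (robust quasi-likelihood, TMM, 1 fit of 4 groups, filterByExpr with minimum count 10 and total 15), at Benjamini-Hochberg adjusted p under 0.05. SE, approximate, is the absolute log2 value divided by the square root of F. Alternatives used DESeq2 1.42.0, limma 3.58.1, other scalings and filters, the replicate block and left-out libraries. The floor for a group without reads was 3 reads over the group; floors and intervals cover counting error only. Lists (44) and members were chosen with earlier results of these data known. Named by rule were called genes with at least 1 CPM, up to 15 per direction by p, up to 5 called per list (2 by p where fewer than 2 were called), AP-1, EGR and NR4A members, and Myc, Medag, Ccl2, Ccl7, Itga5, Socs3 and Ugdh; other genes were named after their values were seen. DESeq2 and limma values stand in the closing section. Results for some called genes are not reported here.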

Additional observations from a re-analysis of the deposited data

Results flagged for a closer look

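For 8 called genes, the log2 change in OV minus KD differed from that in 5NC minus 3NC by the added test of the difference (edgeR, adjusted p under 0.05). The difference was 3.35 for Medag, 3.75 for Myc, 5.46 for Ccl7, 3.30 for Lhfpl3, 1.35 for Errfi1, 1.47 for Trib1, 1.29 for Ifrd1 and 1.39 for Sema4b. In all 8 the value is positive: these genes were higher in 3NC than in 5NC, and KD was not above OV to the same extent. The 5NC minus 3NC change by which they had been chosen enters the test, which favours such values. Medag had an adjusted p of 0.00452 and Myc of 0.0117. Groups of 3 libraries are too small for a check of single libraries that stand apart within a group.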

How the results depend on the processing

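All 59 genes kept their sign in each alternative in which they were tested, and 14 were called in all 18, among them Egr1, Medag, Errfi1, Myc, Btg2, Zfp36 and Osr1. The count of 59 (47 higher in 3NC, 12 in 5NC) became 147 (94 and 53) with DESeq2, 134 (100 and 34) with limma voom, 31 (25 and 6) with limma on log2(FPKM + 0.1), and 32 (28 and 4) on log2(FPKM + 1). Other scalings and filters gave 60 to 63 calls. Leaving out 1 library of either group gave 16 to 66 calls, 14 to 43 higher in 3NC and 2 to 23 higher in 5NC; 16 remained without 5NC replicate 3, 32 without 3NC replicate 2 or without 3NC replicate 3, 34 without 5NC replicate 2 and 39 without 3NC replicate 1. The 6 libraries alone gave 51 (6 higher in 5NC), and leaving aside 3NC replicate 2 and OV replicates 1 and 3 together gave 48 (7 higher in 5NC). The share of calls higher in 3NC ran from 61.8% to 88.2%.

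Same-numbered libraries of 5NC and 3NC did not deviate together (correlations −0.03, 0.01 and 0.02), so the numbers were not read as pairing. With the replicate block the fit of all groups gave 50 calls, and the 6 libraries with the block gave 94 (63 and 31).

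Of the genes in any list, 38 were called; limma on log2(FPKM + 0.1) gave 25, and leaving out 1 library gave 15 to 32. The 5 genes shared with OV against KD became 9 with DESeq2, 10 with limma voom, 3 with limma on log2(FPKM + 0.1), and 3 to 6 when 1 library was left out. Of the 59 calls, 7 were lost whichever library was left out, Ccl2 and Plin1 among them, and 36 were lost in 1 to 5 of the 6 fits, with Hmgcs1, Lss, Spink8 and Kitl lost in 5. The causes were not tested. Genes under a few reads per library, such as Ccl2, are limited by counting.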
